A study of Mus musculus with 6 samples.

Results

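The 10 genes described here, Hif1a, Epas1, Hif1an, Egln1, Egln2, Egln3, Vhl, Vegfa, Adm and Bnip3, encode the oxygen-sensing HIF pathway and classical hypoxia-induced products. They were chosen by gene symbol from the 54532 genes of the expression table, and all 10 were listed there and passed the filter on low values. Transcript levels came from RNA-seq of bone-marrow-derived macrophages (BMDMs), which are macrophages grown in culture from bone marrow, here of C57BL/6 mice with medium conditioned by L929 cells. There were 3 groups of 2 libraries each. Untreated BMDMs received no agent, the LPS group received the bacterial cell-wall component lipopolysaccharide at 100 ng/ml for 2 h, and the Met + LPS group received 5 mM metformin, a diabetes drug that inhibits mitochondrial complex I, for 6 h before the same LPS stimulation. No group given metformin alone was analysed here. Cells were seeded in duplicate per the study's methods, and the labels do not say whether the duplicates came from separate mice, so that the p-values measure only the spread between these libraries, which may be technical.

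Hypoxia-inducible factors are transcription factors made of an oxygen-labile α subunit and a stable β subunit. When oxygen is present, prolyl hydroxylases (the Egln proteins) mark the α subunit for recognition by the von Hippel-Lindau protein and degradation, and an asparaginyl hydroxylase (Hif1an) blocks its contact with coactivators. In macrophages HIF-1α also drives glycolytic and inflammatory gene expression, and LPS is known to raise its transcript through NF-κB. Control of HIF-1α is largely at the protein level, which RNA-seq does not measure.

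The reads on genes, recovered from the deposited TPM (counts divided by gene length and scaled to a total common to all libraries), numbered 25457016 to 30762754 per library. The 12755 genes that reached 1 TPM in 2 or more libraries entered a limma fit on log2(TPM + 1), and a gene was called at a Benjamini-Hochberg adjusted p-value under 0.01. The log2 scale with this pseudocount understates the change of low genes. With 2 libraries against 2, an exact two-sided permutation test could not go below p = 0.333, so the calls rest on the spread limma pools over genes. On the deposited scale, the median gene of the LPS vs untreated comparison stood at -0.48 (log2), and at -0.01 after the libraries were rescaled by the median ratio over genes. Log2 differences against untreated BMDMs are therefore also given after rescaling, while folds are as deposited. All 8 macrophage markers were at 1 TPM or more in every library, and their summed level was 44585 to 46508 TPM in untreated, 35351 to 35961 TPM in LPS and 29188 to 29333 TPM in Met + LPS libraries. Most of that sum was Lyz2 (33981 to 35844, 26696 to 26974 and 21203 to 21381 TPM). Adgre1 was higher with LPS (1684 to 1750 TPM) than untreated (1510 to 1575 TPM). Fcgr1 overlapped between untreated and LPS libraries, and Cd68 between LPS and Met + LPS libraries. Apart from these, each marker moved as the sum did. Neutrophil markers summed to 29.9 to 32.6 TPM in untreated, 26.5 to 28.0 TPM in LPS and 43.4 to 45.5 TPM in Met + LPS libraries, with 5 of 7 at 1 TPM or more throughout and Ly6g at no more than 0.140 TPM. In bulk RNA, fewer cells of a type and less RNA per cell cannot be told apart. Summed markers of lymphocytes, erythroid cells and fibroblasts reached at most 0.652, 0.423 and 0.846 TPM respectively, and those of dendritic cells were between 0.537 and 2.80 TPM. The part of other cell types in the results was not tested.

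LPS raised Hif1a and Adm, and it lowered Vegfa more than any other gene of the pathway set. In TPM as deposited 9 of the 10 genes were called between LPS and untreated BMDMs, against 76.3% of all tested genes. Hif1a and Adm were the 2 higher genes, where 16.2% of tested genes were higher. The 7 lower genes were Epas1, Hif1an, Egln1, Egln2, Vhl, Vegfa and Bnip3, where 60.1% of tested genes were lower, and the median of the 10 genes was -0.65 against -0.48 for all genes. Of the 6.08% of tested genes that also passed the study's fold cut-off for this comparison, a log2 fold change of 2 or more in size, Adm was among the higher (3.72%) and Vegfa among the lower (2.37%). After rescaling, 6 of the 10 were called (58.3% of tested genes), with Hif1a and Adm higher (30.6%) and Hif1an, Egln1, Vegfa and Bnip3 lower (27.6%). Between Met + LPS and LPS, 3 of the 10 were called, against 32.6% of tested genes. Vegfa was the 1 higher gene (14.5% of tested genes were higher), and Egln2 and Adm were the 2 lower genes (18.0% were lower). Rescaling left the same 3 calls (33.1% of tested genes called, 15.6% higher and 17.4% lower). The share of the genes called in the metformin comparison was thus near the background, and Vegfa alone among the 10 also passed the study's fold cut-off for this comparison, a log2 fold change of 0.7 in size, as did 8.28% of tested genes (4.19% higher and 4.09% lower). Both comparisons use the same LPS libraries.

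**Figure D1:**
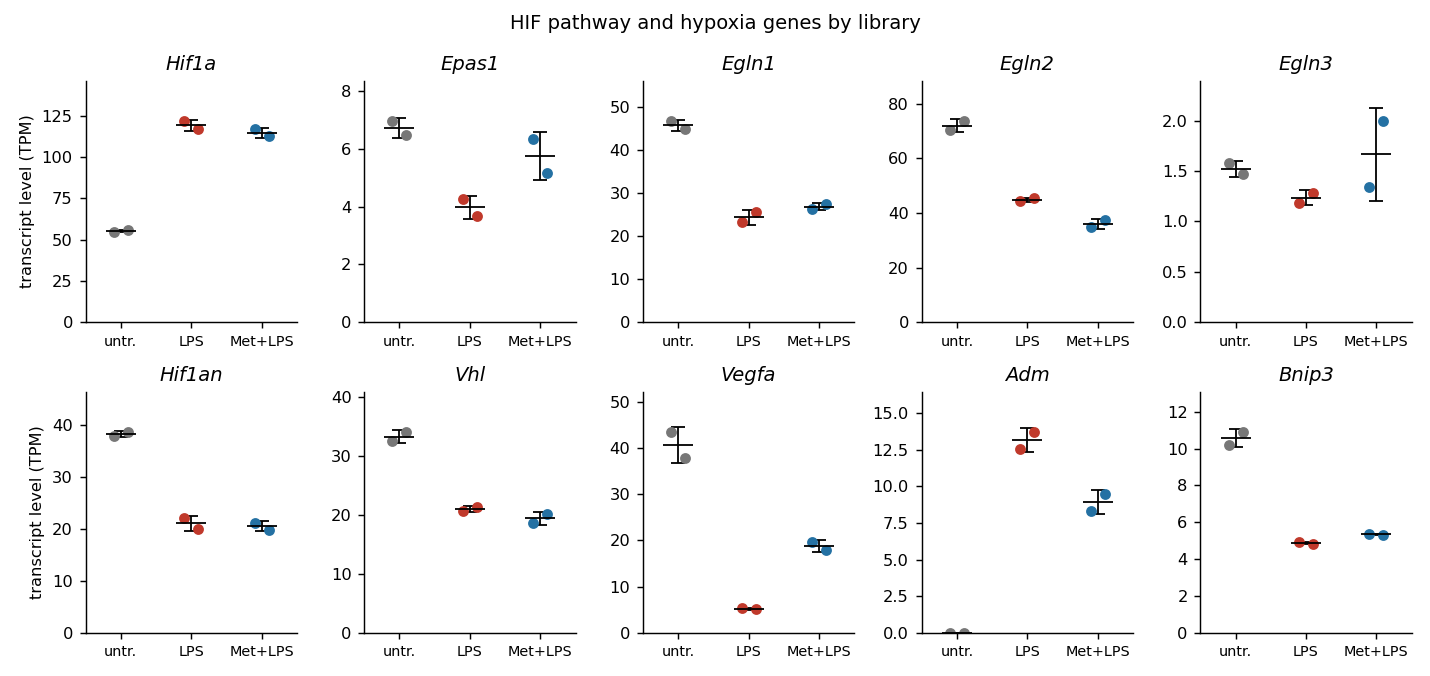
Transcript level in TPM (vertical axes, from 0) of each of the 10 genes in the 2 untreated, 2 LPS and 2 Met + LPS libraries. Points are libraries, horizontal lines the group means and whiskers 1 SD (n = 2). Hif1a was near 119 TPM with LPS against 55.1 TPM untreated, Vegfa was lowest with LPS and intermediate with Met + LPS, and Adm was listed at 0 in both untreated libraries.

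In untreated BMDMs, Egln2 had the highest level per length of the 10 genes at 71.9 ± 2.38 TPM (SD, n = 2), followed by Hif1a at 55.1 and Egln1 at 45.8 TPM. Vegfa and Hif1an came next, at 40.7 and 38.1 TPM, and their libraries overlapped. With LPS, Hif1a led at 119 TPM and Egln2 followed at 44.8 TPM, while the libraries of Hif1an and Vhl overlapped. With Met + LPS the order of the first 3 genes was again Hif1a, Egln2 and Egln1, and Vegfa at 18.8 TPM overlapped with Vhl at 19.4 TPM. Epas1 (5.76 TPM) and Bnip3 (5.36 TPM) overlapped there too. Egln3 was the lowest detected gene of the set in all 3 groups, at 1.24 to 1.67 TPM on average.

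**Figure D2:**
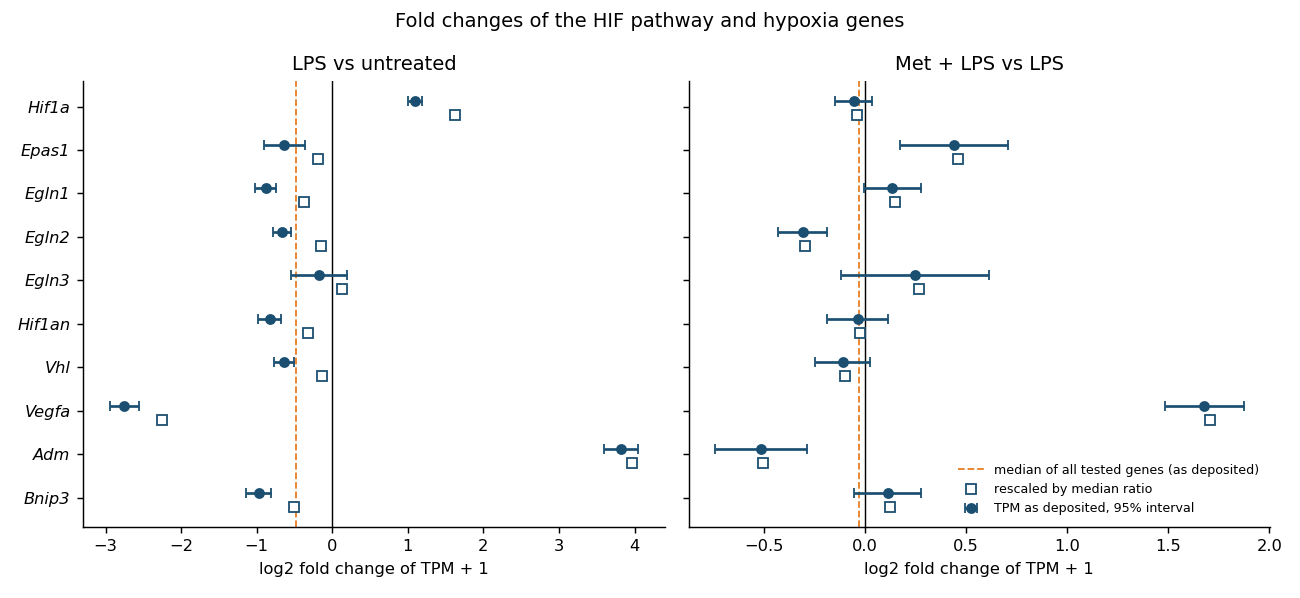
Log2 fold change of TPM + 1 (horizontal axes) for the 10 genes, LPS vs untreated on the left and Met + LPS vs LPS on the right. Filled points are TPM as deposited with limma's 95% interval, open squares the same after rescaling by the median ratio, and the dashed line is the median of all tested genes (-0.48 left, -0.03 right). Hif1a, Vegfa and Adm lie far from that median on the left, and Vegfa on the right.

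Hif1a, the gene of the HIF-1α subunit (ENSMUSG00000021109, GRCm38 chromosome 12, 73901375 to 73947530, + strand), rose 2.17-fold with LPS. Its libraries read 54.7 and 55.6 TPM untreated, 121.8 and 117.1 TPM with LPS, and 116.9 and 112.7 TPM with Met + LPS. The LPS libraries lay far above the untreated ones, a log2 fold change of 1.10 (SE 0.04, adjusted p = 8.1e-07), or 1.62 after rescaling, and 1023 of the 12755 tested genes had a larger log2 fold change. The Met + LPS libraries lay just below the LPS libraries, with a log2 fold change of -0.06 (95% interval -0.15 to 0.04, adjusted p = 0.273). Both Met + LPS libraries remained far above both untreated libraries. An antisense gene, Gm15283, shares 330 exon bases with Hif1a and was at no more than 0.506 TPM in any library.

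Epas1 encodes HIF-2α, the other widely studied α subunit (ENSMUSG00000024140, chromosome 17, 86753700 to 86833410, + strand), and it was far less abundant than Hif1a. Its libraries read 6.96 and 6.47 TPM untreated, 4.26 and 3.69 TPM with LPS, and 6.35 and 5.17 TPM with Met + LPS. It moved opposite to Hif1a with LPS in TPM as deposited, by a log2 fold change of -0.63 (SE 0.11, adjusted p = 0.00156). This was near the median gene, the call was lost after rescaling (-0.19, adjusted p = 0.170), and it was also lost without untreated replicate 1 (adjusted p = 0.020), without untreated replicate 2 (0.0124) and without LPS replicate 2 (0.0118). With metformin the log2 fold change against LPS was 0.44 (SE 0.11, 95% interval 0.17 to 0.71, adjusted p = 0.0176), which missed the threshold although both Met + LPS libraries lay above both LPS libraries. The same difference passed with genes of at least 5 TPM alone (adjusted p = 0.00798), with the replicate letter as a block (0.00769) and with voom on the recovered reads (0.00124).

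The ratio of 2 genes within a library does not depend on how libraries are scaled. Hif1a was 7.86 and 8.59 times as abundant as Epas1 in the untreated libraries, 28.6 and 31.7 times with LPS, and 18.4 and 21.8 times with Met + LPS. The 3 groups did not overlap in this ratio, and the Met + LPS libraries lay between the others.

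**Figure D3:**
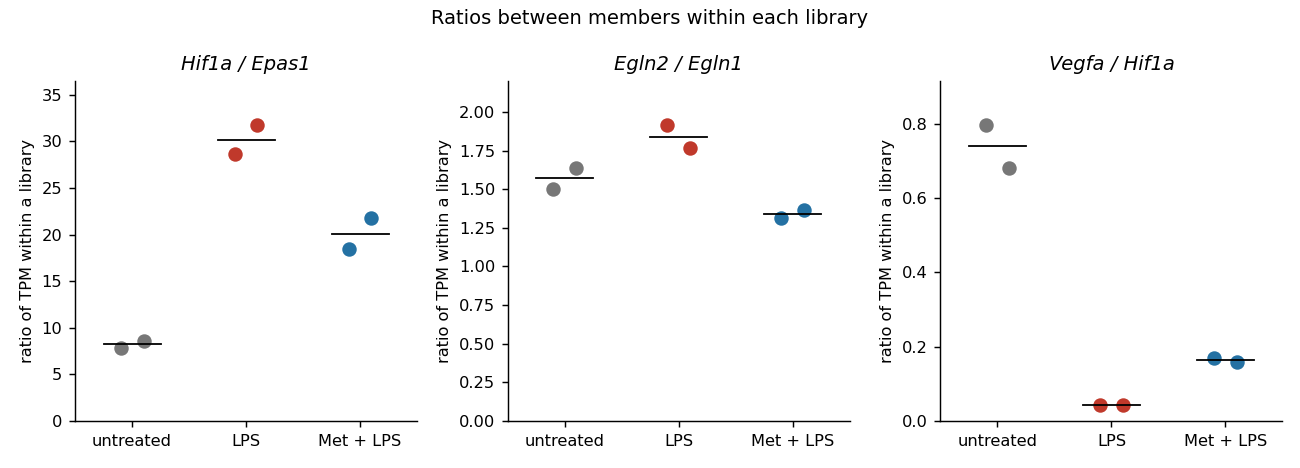
Ratio of TPM within a library (vertical axes, from 0) for Hif1a to Epas1, Egln2 to Egln1 and Vegfa to Hif1a. Points are libraries and lines the group means (n = 2). Hif1a to Epas1 was highest with LPS (28.6 and 31.7), and Vegfa to Hif1a was lowest with LPS (0.0433 and 0.0434).

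The prolyl hydroxylases were represented mainly by Egln2 and Egln1, which encode PHD1 and PHD2, the latter regarded as the principal oxygen sensor. Egln1 (ENSMUSG00000031987, chromosome 8, 124908587 to 124949324, - strand) read 46.7 and 44.9 TPM untreated, 23.2 and 25.6 TPM with LPS, and 26.4 and 27.4 TPM with Met + LPS. It fell with LPS by 0.88 on the log2 scale (SE 0.06, adjusted p = 1.4e-05), and the call was kept after rescaling at -0.37 (adjusted p = 0.00167). Against LPS, metformin gave 0.14 (95% interval -0.01 to 0.28, adjusted p = 0.104), with both Met + LPS libraries slightly above both LPS libraries.

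Egln2 (ENSMUSG00000058709, chromosome 7, 27158658 to 27166802, - strand) showed the reverse order between the treated groups. It read 70.2 and 73.6 TPM untreated, 44.3 and 45.3 TPM with LPS, and 34.7 and 37.3 TPM with Met + LPS, with no overlap between groups. The LPS difference of -0.67 (adjusted p = 2.3e-05) came to -0.15 after rescaling and was then not called (adjusted p = 0.0309). With metformin Egln2 fell by a further 0.31 on the log2 scale (SE 0.05, adjusted p = 0.00277). That call was lost without the filter on low values (adjusted p = 0.0109), with LPS and Met + LPS libraries fitted alone (0.0116), without the mean-variance trend (0.0117) and without any 1 library other than Met + LPS replicate 2 (0.0111 to 0.0202).

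The ratio of Egln2 to Egln1 was 1.504 and 1.640 in untreated, 1.91 and 1.77 in LPS and 1.32 and 1.36 in Met + LPS libraries, so that the Met + LPS libraries were the lowest and the LPS libraries the highest. The 3 Egln genes together summed to 118 and 120 TPM untreated, 68.7 and 72.2 TPM with LPS, and 62.4 and 66.7 TPM with Met + LPS. Egln3, which encodes PHD3 and is itself a hypoxia-induced gene (ENSMUSG00000035105, chromosome 12, 54178981 to 54203860, - strand), contributed between 1.22% and 2.99% of that sum. Its libraries read 1.58 and 1.47 TPM untreated, 1.18 and 1.29 TPM with LPS, and 1.34 and 1.99 TPM with Met + LPS, each on 24 to 47 reads. No comparison of Egln3 passed the test, with log2 fold changes of -0.18 (95% interval -0.54 to 0.19) for LPS and 0.24 (-0.12 to 0.61) for metformin, and after rescaling the sign of the LPS difference turned to 0.13. A change of Egln3 within these intervals was not detectable at this depth.

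Hif1an encodes factor inhibiting HIF, the asparaginyl hydroxylase (ENSMUSG00000036450, chromosome 19, 44562850 to 44576274, + strand). Its libraries read 37.7 and 38.6 TPM untreated, 22.1 and 20.0 TPM with LPS, and 21.1 and 19.8 TPM with Met + LPS. It fell with LPS by 0.83 on the log2 scale (SE 0.06, adjusted p = 2.4e-05) and was still called after rescaling (-0.32, adjusted p = 0.00309). The LPS and Met + LPS libraries overlapped, and the difference was -0.04 (95% interval -0.19 to 0.11, adjusted p = 0.659).

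Vhl, the gene of the substrate-recognition subunit of the ubiquitin ligase that targets hydroxylated HIF-α (ENSMUSG00000033933, chromosome 6, 113623959 to 113631633, + strand), read 32.5 and 34.0 TPM untreated, 20.6 and 21.4 TPM with LPS, and 18.6 and 20.2 TPM with Met + LPS. Its LPS difference of -0.64 (adjusted p = 5.5e-05) was close to the median gene and was -0.13 after rescaling (adjusted p = 0.0805). The metformin difference was -0.11 (95% interval -0.25 to 0.03, adjusted p = 0.156). Thus, of the 5 genes that hydroxylate or recognise HIF-α, Egln1 and Hif1an were called lower with LPS on both scales, Egln2 and Vhl as deposited alone, and Egln3 on neither.

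The targets of HIF in the set act on vessels (Vegfa and Adm) and mitochondria (Bnip3), and Egln3 is a target as well as a hydroxylase. HIF binds DNA at short sites with the core ACGTG or GCGTG. The 250 bases before the RefSeq start (GRCm38.p6) of these 4 genes are shown because they differ in how often these letters occur. They lie at chr17:46032378-46032627 (- strand) for Vegfa, chr7:110627407-110627656 (+ strand) for Adm, chr7:138909507-138909756 (- strand) for Bnip3 and chr12:54203875-54204124 (- strand) for Egln3, written 5′ to 3′ along the gene's strand. Capitals mark ACGTG or GCGTG on either strand (CACGT or CACGC where the match is on the other strand), and overlapping matches run together.
Vegfa: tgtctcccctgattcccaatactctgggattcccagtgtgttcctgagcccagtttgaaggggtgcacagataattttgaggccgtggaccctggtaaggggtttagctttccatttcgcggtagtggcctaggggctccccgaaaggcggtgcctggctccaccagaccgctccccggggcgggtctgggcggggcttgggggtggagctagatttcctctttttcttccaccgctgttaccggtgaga
Adm: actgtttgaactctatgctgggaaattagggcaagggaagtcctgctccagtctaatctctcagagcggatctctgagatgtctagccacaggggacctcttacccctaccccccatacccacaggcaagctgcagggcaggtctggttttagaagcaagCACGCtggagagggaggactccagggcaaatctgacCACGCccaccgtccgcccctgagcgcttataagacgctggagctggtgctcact
Bnip3: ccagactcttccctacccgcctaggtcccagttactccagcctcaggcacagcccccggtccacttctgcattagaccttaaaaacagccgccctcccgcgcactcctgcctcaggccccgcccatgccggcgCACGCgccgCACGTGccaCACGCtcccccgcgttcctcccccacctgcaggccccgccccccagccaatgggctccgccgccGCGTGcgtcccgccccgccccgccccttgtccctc
Egln3: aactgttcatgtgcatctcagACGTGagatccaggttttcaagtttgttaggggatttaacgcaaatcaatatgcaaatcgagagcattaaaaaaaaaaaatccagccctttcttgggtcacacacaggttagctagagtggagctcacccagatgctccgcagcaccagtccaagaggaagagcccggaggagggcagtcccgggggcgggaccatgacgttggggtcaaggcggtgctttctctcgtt

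The Vegfa window held no match, whereas a second RefSeq start of Vegfa, 7206 bases inside the gene, had 2 matches in its window. The Adm window held 2, starting 90 and 54 bases before the start. Bnip3 held 5, of which a pair overlaps in the palindrome CACGTG, and Egln3 held 1, 229 bases before the start. Among the 9 genes with an entry, 7 had at least 1 match in at least 1 window, and Vhl and Hif1an had none. Vegfa is among the 7 only through its second start, and Hif1a only through a start 6492 bases from its annotated gene start. Counted by window, 8 of 11 (72.7%) held a match. Of all 32851 promoter windows 38.6% held a match, and of the 63 windows of the list of hypoxia-induced genes, 48 (76.2%) did. The match is a description of the letters, and these windows hold only the bases nearest the start. Both cores contain CG, and the GC content of the 11 windows ranged from 48% (a second Egln2 start) to 86% (Egln1). The shares were not adjusted for base content, so they do not show an excess of HIF sites.

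Vegfa, the gene of vascular endothelial growth factor A (ENSMUSG00000023951, chromosome 17, 46016993 to 46032369, - strand), showed the widest change of the 10 genes that was read in every library. Its libraries read 43.5 and 37.9 TPM untreated, 5.27 and 5.08 TPM with LPS, and 19.7 and 17.9 TPM with Met + LPS. The 3 groups were well apart, with LPS lowest and Met + LPS in between. LPS lowered Vegfa 7.86-fold, a log2 fold change of -2.75 (SE 0.08, adjusted p = 3.7e-07) or -2.26 after rescaling, and 78 of the 12755 tested genes had a lower value. Met + LPS libraries had 3.63 times the Vegfa level of LPS libraries, a log2 fold change of 1.68 (SE 0.08, adjusted p = 2.5e-05), or 1.71 after rescaling, and 62 tested genes had a higher value. Leaving out any 1 library gave -2.85 to -2.65 for LPS and 1.62 to 1.74 for metformin, all called. Summed neutrophil and endothelial markers were also higher in Met + LPS (43.4 to 45.5 and 96.2 to 101 TPM) than in LPS libraries (26.5 to 28.0 and 53.6 to 56.0 TPM). The endothelial sum came almost wholly from Kdr and Vwf, while Pecam1, Cdh5 and Tie1 were at no more than 0.297 TPM in any library. The part of such cells in the Vegfa difference was not tested. The ratio of Vegfa to Hif1a was 0.795 and 0.682 untreated, 0.0433 and 0.0434 with LPS, and 0.168 and 0.159 with Met + LPS.

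Adm encodes the vasodilator peptide adrenomedullin (ENSMUSG00000030790, chromosome 7, 110627661 to 110629820, + strand). It was listed at 0 in both untreated libraries, at 12.6 and 13.7 TPM with LPS (155 and 162 reads) and at 8.33 and 9.49 TPM with Met + LPS (102 and 136 reads). The gene was thus detected in the stimulated groups alone. A count of 0 allows up to 3 reads, which is 0.259 TPM in the shallower untreated library, so that Adm was at least 50.8-fold higher with LPS (adjusted p = 1.8e-07). This limit covers counting error only. Against LPS, Adm was lower with metformin by a log2 fold change of -0.51 (SE 0.09, adjusted p = 0.00489), with no overlap of the libraries. The call was lost with a pseudocount of 0.1 (adjusted p = 0.0230), without the filter (0.0244), with LPS and Met + LPS libraries fitted alone (0.0127) and without any 1 of the 6 libraries (0.0124 to 0.0380).

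Bnip3, a mitochondrial outer-membrane protein that promotes mitophagy in hypoxia (ENSMUSG00000078566, chromosome 7, 138890836 to 138909519, - strand), read 10.2 and 10.9 TPM untreated, 4.93 and 4.84 TPM with LPS, and 5.37 and 5.34 TPM with Met + LPS. LPS lowered it by a log2 fold change of -0.97 (SE 0.07, adjusted p = 1.8e-05), or -0.51 after rescaling (adjusted p = 0.000575). The Met + LPS libraries lay slightly above the LPS libraries, with a difference of 0.11 (95% interval -0.05 to 0.28, adjusted p = 0.228). The level of Bnip3 is uncertain, because 43.0% of its 31-base stretches occur in no other gene and the authors' counting could have dropped or split shared reads. The 6 genes that share them were each at no more than 0.250 TPM in any library.

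The 3 targets therefore did not move together. With LPS, Adm was higher and Vegfa and Bnip3 were lower on both scales, and with metformin Vegfa was higher, Adm was lower in the fit of all libraries, and Bnip3 did not pass the test.

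Met + LPS and untreated BMDMs were also compared, to show where each gene ended after both agents. Of the 10 genes 8 were called, against 75.1% of tested genes, with Hif1a and Adm higher (16.3% of tested genes) and Hif1an, Egln1, Egln2, Vhl, Vegfa and Bnip3 lower (58.8%). The median tested gene was at -0.48 here too. After rescaling 7 were called (63.1% of tested genes), 2 higher (33.4%) and 5 lower (29.7%). Adm was the 1 gene of the set past a log2 fold change of 2 (5.35% of tested genes, 3.18% higher and 2.16% lower). Vegfa remained below the untreated level, at -1.07 (SE 0.08, adjusted p = 2.3e-05) or -0.55 after rescaling, which left it 2.17-fold lower. Adm was at least 34.5-fold higher, and Hif1a was higher by 1.04 (adjusted p = 1.1e-06), or 1.58 after rescaling. Egln2 was the hydroxylase gene with the largest difference, -0.98 (adjusted p = 4.1e-06) or -0.45 after rescaling. Egln1 at -0.75 was not called after rescaling (-0.22, adjusted p = 0.0154), and Vhl, also at -0.75, was called at the edge of the threshold (-0.23, adjusted p = 0.00997). Epas1 was at -0.19 (95% interval -0.46 to 0.07, adjusted p = 0.146), or 0.27 after rescaling, and Egln3 at 0.07 (-0.30 to 0.44, adjusted p = 0.687), or 0.39. The remaining 2 called genes were Hif1an at -0.87 (-0.34 after rescaling) and Bnip3 at -0.86 (-0.38).

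Other components of the pathway were read from whole lists of known pathway genes. Of 15 tested partners of HIF (of 21 listed), which comprise the β subunit, coactivators, the ubiquitin ligase and regulators of stability, 5 (33.3%) were higher and 8 (53.3%) lower with LPS, against 16.2% and 60.1% of tested genes, and after rescaling 8 were higher and 3 lower (30.6% and 27.6% of tested genes). Cited2, which competes with HIF-α for the coactivators p300 and CBP, rose from 201 ± 11.4 to 584 ± 26.6 TPM (SD, n = 2 each), or 1.54 on the log2 scale (2.06 after rescaling). Siah2, a ubiquitin ligase that acts on prolyl hydroxylases, rose by 0.75 (1.24 after rescaling), and the chaperone gene Hsp90aa1 by 0.36 (0.88). Ldb1, a LIM-domain binding protein, had -1.66 (-1.15 after rescaling), the coactivator gene Ep300 -0.99 (-0.48) and Arnt, the HIF-1β subunit, -0.71 (-0.20), from 33.6 to 20.2 TPM. These 6 genes kept their direction and call after rescaling.

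With metformin, 5 of the 15 partners (33.3%) were higher than with LPS and 1 (6.67%) was lower, against 14.5% and 18.0% of tested genes. Cited2 rose further to 871 ± 0.443 TPM (SD, n = 2), by 0.58 (adjusted p = 0.000206), Siah1a by 0.44 (adjusted p = 0.00454) and Ldb1 by 0.32 (adjusted p = 0.00107). Ep300 was the lower gene, at -0.39 (adjusted p = 0.000904). Between Met + LPS and untreated BMDMs, 4 were higher and 5 lower as deposited (16.3% and 58.8% of tested genes), the balance turned to 10 higher and 2 lower after rescaling (33.4% and 29.7%), and Cited2 passed the fold cut-off at 2.11 (2.65 after rescaling).

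Of 51 tested genes of the list of other hypoxia-induced genes, 15 (29.4%) were higher and 32 (62.7%) lower with LPS, against 16.2% and 60.1% of tested genes. After rescaling 19 were higher and 14 lower (30.6% and 27.6% of tested genes). Of the 51, 9 (17.6%) passed the cut-off of 2, as did 6.08% of all tested genes. The list's median was -0.48, the same as that of all tested genes. The higher genes past that cut-off included Edn1 (endothelin-1, 0.290 to 203 TPM, 7.32 or 7.55 after rescaling), the kinase gene Pim1 (3.54 or 4.06), and the glycolytic genes Pfkfb3 (2.96 or 3.47) and Hk2 (2.39 or 2.90). The lower ones were Zfp395 (-4.16 or -3.72), Narf (-2.79 or -2.32), the repressor gene Bhlhe41 (67.8 to 8.96 TPM, -2.79 or -2.28) and Angptl4, an inhibitor of lipoprotein lipase (-2.24 or -1.82). The list thus held genes far from the median in both directions, as the 10 genes did with Adm and Vegfa.

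Between Met + LPS and LPS, 13 of the 51 (25.5%) were higher and 14 (27.5%) lower, against 14.5% and 18.0% of tested genes, and 9 (17.6%) passed the cut-off of 0.7, against 8.28% of tested genes. Bhlhe41 reached 38.8 ± 4.03 TPM from 8.96 ± 0.846 TPM (SD, n = 2 each, adjusted p = 2.0e-05) and the related repressor gene Bhlhe40 from 23.0 ± 0.986 to 73.4 ± 6.64 TPM (1.63, adjusted p = 1.6e-05). Ero1l, an oxidase of the endoplasmic reticulum, rose by 0.94, the histone demethylase gene Kdm3a by 0.87 and Narf by 0.85. Pfkfb3 fell from 135 ± 1.76 to 35.6 ± 3.17 TPM (-1.90, adjusted p = 8.6e-06), the collagen-modifying Plod2 by 0.94 and Ddit4, an inhibitor of mTORC1, by 0.87 on the log2 scale. Among the genes named here as past the cut-off of 0.7, Bhlhe41, Bhlhe40, Kdm3a and Narf shared the pattern of Vegfa, called lower with LPS and higher with metformin. Pfkfb3, Plod2 and Ddit4 had the opposite pattern, and Ero1l was higher in both comparisons. Listed genes with smaller metformin differences also had these patterns, for example Hmox1 that of Vegfa and Hk2 the opposite one. The share of all tested genes with either pattern is not given here, so the patterns cannot be called particular to hypoxia-induced genes. The LPS libraries enter both comparisons, and a chance deviation in them moves both values of a gene in opposite directions. Between Met + LPS and untreated BMDMs, 14 of the 51 were higher and 31 lower (16.3% and 58.8% of tested genes), and 22 were higher and 18 lower after rescaling (33.4% and 29.7%). The 7 past the cut-off of 2 included Edn1 (6.88 or 7.12 after rescaling), Pim1 (3.85 or 4.39), Hk2 (2.20 or 2.73), Pfkfb4 (-2.14 or -1.64), Angptl4 (-2.95 or -2.58) and Zfp395 (-3.90 or -3.45).

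**Figure D4:**
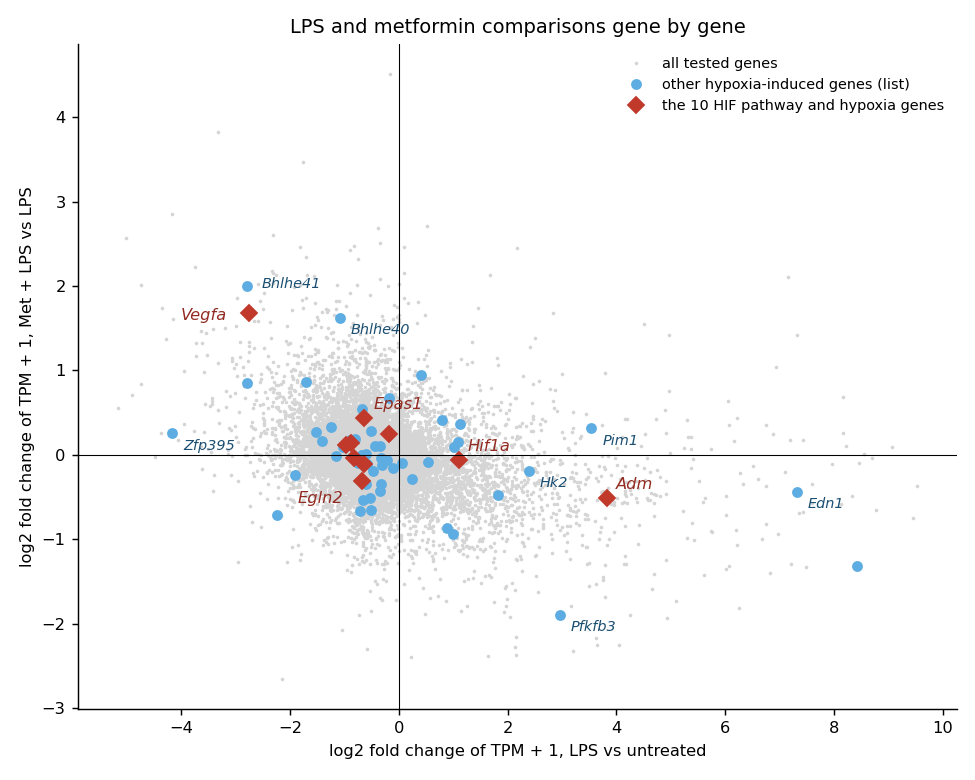
Log2 fold change of TPM + 1 for LPS vs untreated (horizontal axis) and Met + LPS vs LPS (vertical axis) of the 12755 tested genes (grey), the 51 other hypoxia-induced genes (blue) and the 10 genes of the HIF pathway set (red). Vegfa lies at -2.75 and 1.68 beside Bhlhe41, Adm at 3.82 and -0.51, and Hif1a at 1.10 and -0.06; the LPS libraries are shared by both axes.

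Ligands and receptors related to Vegfa and Adm were described by 9 tested genes of 17 listed. With LPS, 5 were higher and 3 lower, against 16.2% and 60.1% of tested genes, and after rescaling 6 were higher and 2 lower (30.6% and 27.6%). Calcrl, which encodes a subunit of the receptor through which adrenomedullin acts, reached 169 ± 6.73 TPM from 37.0 ± 0.169 TPM (SD, n = 2 each), a rise of 2.16 on the log2 scale (2.68 after rescaling). The ligand gene Pgf rose from 0.161 to 4.29 TPM (2.19 or 2.36 after rescaling) and the co-receptor gene Nrp2 from 180 to 440 TPM (1.28 or 1.81). Vegfb (88.9 to 44.0 TPM, -0.48 after rescaling), Nrp1 (-0.90 or -0.38) and Ramp1 (-0.78), an accessory subunit of Calcrl, were lower, the last not called after rescaling (-0.33, adjusted p = 0.0142). No other Ramp gene was among the 9, and a change of the adrenomedullin receptor as a whole was not tested. With metformin 2 were higher than with LPS and 3 lower (14.5% and 18.0% of tested genes). The VEGF receptor gene Kdr reached 32.9 ± 1.10 TPM from 22.2 ± 1.62 TPM (SD, n = 2 each, adjusted p = 0.000644), and Nrp1 rose by 0.34. Nrp2 (-0.46), Ramp1 (-0.45) and Flt1 (2.09 to 1.02 TPM, -0.61) were lower than with LPS. Kdr is also a marker of endothelial cells. The 5 endothelial markers summed to 72.8 to 75.4 TPM in untreated, 53.6 to 56.0 TPM in LPS and 96.2 to 101 TPM in Met + LPS libraries, of which Kdr and Vwf (up to 68.3 TPM) were the only ones at 1 TPM or more. Pecam1, Cdh5 and Tie1, the other markers of that list, were at no more than 0.297 TPM. Between Met + LPS and untreated BMDMs 4 of the 9 were higher and 3 lower (16.3% and 58.8% of tested genes), or 6 and 2 after rescaling (33.4% and 29.7%), with Calcrl (2.13 or 2.66) and Pgf (2.11 or 2.29) past the cut-off.

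Bnip3 was set beside 15 tested mitophagy genes. With LPS 12 of the 15 were lower and 0 were higher in TPM as deposited, against 60.1% and 16.2% of tested genes. After rescaling 4 (26.7%) were lower and 3 higher, against 27.6% and 30.6%, so that the list was then near the background. Ulk1, the kinase that starts autophagy, went from 31.8 to 8.91 TPM (-1.73, or -1.23 after rescaling), with the LC3-family genes Gabarapl1 at -0.94 (-0.42) and Map1lc3b at -0.91 (-0.39), and all 3 were called lower on both scales. With metformin 3 were higher and 1 lower (14.5% and 18.0% of tested genes). The higher ones were Ulk1 (0.52), Gabarapl1 (0.46) and Phb2 (0.22), and Map1lc3b was the lower one (-0.27). For Bnip3 the LPS difference lay -0.49 from that of the median gene, and its metformin difference of 0.11 did not pass the test.

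The HIF hydroxylases consume α-ketoglutarate and are inhibited by succinate and fumarate, so 17 genes of the Krebs cycle and of mitochondrial transport were read as well. As deposited 16 (94.1%) were lower with LPS and 0 higher, against 60.1% and 16.2% of tested genes, with a median of -0.37 that was above the -0.48 of all genes. After rescaling 1 was lower and 4 were higher (27.6% and 30.6% of tested genes). The lower gene on both scales was Idh1, the cytosolic isocitrate dehydrogenase that makes α-ketoglutarate, from 327 ± 4.40 to 192 ± 5.22 TPM (SD, n = 2 each), or -0.76 on the log2 scale and -0.24 after rescaling. With metformin 5 of the 17 (29.4%) were lower than with LPS and 0 higher (18.0% and 14.5% of tested genes). Against untreated BMDMs all 17 were lower with Met + LPS as deposited (58.8% of tested genes), and after rescaling 5 were lower, 3 higher and 9 not called (29.7% lower and 33.4% higher among tested genes). Idh1 fell further to 103 ± 7.67 TPM (-0.89, adjusted p = 5.3e-05) and the dicarboxylate carrier gene Slc25a10 from 50.3 to 29.0 TPM (-0.77, adjusted p = 7.8e-05), both past the cut-off of 0.7, and the α-ketoglutarate carrier gene Slc25a11 fell by 0.44.

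The profile of log2(TPM + 1) over the 6 libraries, centred on its mean, was compared with that of the 9017 tested genes of mean TPM of at least 5. The measure of likeness was the root mean square difference on the log2 scale. Closest to Hif1a were Rela (0.0364), which encodes the p65 subunit of NF-κB and read 144, 314 and 296 TPM on average in untreated, LPS and Met + LPS BMDMs, followed by Igsf6 (0.0404) and Eif1a (0.0435). Closest to Vegfa were Gm17147 (0.135), Rusc2 (0.154) and Bhlhe41 (0.160), the last also a gene of the hypoxia list. Gm17147 is annotated as a processed pseudogene within Hpgds, on the opposite strand, so that the origin of its reads is uncertain. For Bnip3 they were Tmem222 (0.0247), Zfp830 (0.0277) and Hcfc2 (0.0316). The distances of the Vegfa neighbours were larger than those of the others. The measure is not scaled to the size of a gene's changes, which were wider for Vegfa. Distances are therefore not comparable between Hif1a, Vegfa and Bnip3. For Hif1a the 3 distances differed little (0.0364 to 0.0435). Whether the order of the neighbours of each gene would hold in other libraries was not tested.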

How the data were processed

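The authors enriched poly-A RNA, aligned single-end reads to GRCm38 (STAR 2.6.1d, SAMtools 1.9 and Subread 1.6.3 with featureCounts per the submitters' processing notes) and deposited TPM for 54532 genes in 6 libraries, replicates not pooled. How counts became TPM is not given in the sources used here. The file's transcript length column was not used, since it gave whole reads for 34.5% to 36.6% of values above 0. Members, lists and tests were chosen with earlier results of these data known.

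Genes reaching 1 TPM in 2 or more libraries were tested with limma 3.58.1 (R 4.3.3) on log2(TPM + 1). A single fit held all 6 libraries, with eBayes with a trend, Benjamini-Hochberg adjustment over 12755 genes and 3 residual degrees of freedom. The fold cut-offs, 2 against untreated BMDMs and 0.7 against LPS, and the threshold of 0.01 follow the study's methods. The test was checked on simulated data with known folds, equally many up and down, in a small set of genes. A shift of the median gene such as that with LPS was not simulated. Reads were recovered from TPM and GENCODE exon lengths (54495 genes), and 96.1% to 96.3% of values above 0 came out whole within 0.02 reads. Each of these was also tried: voom on the recovered reads, median-ratio scaling, a replicate block, the 2 compared groups alone, eBayes without trend, a pseudocount of 0.1, a filter of 5 TPM or none, a threshold of 0.05, and each library left out.

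Named genes are the 10 members, per list and comparison up to 3 called genes with the largest change in each direction and those past the fold cut-off, and 3 genes nearest in profile to Hif1a, Vegfa and Bnip3. One gene that the rule names is not reported here. Promoter windows are from RefSeq (GRCm38.p6). Further software was Python 3.11.15, pandas 2.3.3, numpy 2.4.6, scipy 1.17.1 and matplotlib 3.10.9.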

Additional observations from a re-analysis of the deposited data

How the results depend on the processing

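Of 447 log2 fold changes of the 10 genes recomputed under alternatives, 414 kept their direction and side of the threshold. Counts of calls moved as follows. With a pseudocount of 0.1 and with voom on recovered reads, the genes past the fold cut-off numbered 1512 and 1595 instead of 776 for LPS vs. untreated, and 1457 and 1562 instead of 682 for Met + LPS vs. untreated. After median-ratio scaling that count split into 663 higher and 129 lower instead of 474 and 302 for LPS, and into 571 and 98 instead of 406 and 276 for Met + LPS vs. untreated. For Met + LPS vs. LPS, the genes called fell from 4156 to 2662 with the compared groups fitted alone and to 2561 to 2759 when 1 library was left out, where fewer samples enter the fit. Of the 10 genes, 1 instead of 3 was then called with the compared groups alone and without the filter, and 1 to 2 when 1 library was left out. Vegfa was called in both comparisons under every alternative run.

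Directions turned for Egln3 (LPS vs. untreated, 0.13) and Epas1 (Met + LPS vs. untreated, 0.27) after rescaling, for Hif1an (Met + LPS vs. LPS) without LPS replicate 1 and without Met + LPS replicate 2 (-0.11 to 0.032 over the libraries left out), and for Egln3 (Met + LPS vs. untreated) without Met + LPS replicate 2 (-0.11 to 0.25). None of these values was called. The cause was not tested.

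Differences between replicates correlated at -0.004 to 0.028 between groups when matched by replicate letter. This cannot show how the libraries were made, and the labels do not say whether equal letters share a mouse. With the letter as a block, 9641, 3956 and 9436 genes were called in the 3 comparisons, and 9, 4 and 8 of the 10 genes, the added one being Epas1 for Met + LPS vs. LPS. A minimum of 5 TPM left Egln3 untested. Depth limits Egln3 (24 to 47 reads) most, and with 2 libraries a group small differences could be missed.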
